A study of Salmo salar with 72 samples.

Results

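The Atlantic salmon genes clic5a (ENSSSAG00000002585) and slc13a5b (ENSSSAG00000050374) were followed across 6 diets and both tissues, 2 of the 69389 genes counted. Both were chosen from the distal intestine (DI) of fish fed AWA compared with fish fed FM, where they had the most negative log2 fold changes among the genes with a symbol that were called lower, averaged at least 1 CPM (counts scaled to a common library size) and did not overlap between the 6 AWA and 6 FM fish. That comparison, and every other one that shares its FM or AWA intestines, is therefore given as a description with no test. The 72 libraries came from 36 fish fed for 42 days in seawater, 6 fish per diet, with 1 library of the DI and 1 of the spleen from each fish. The FM diet was based on fishmeal. The SBM diet held 30% soybean meal. The other 4 diets held 30% soybean meal together with a yeast, which was Cyberlindnera jadinii in ICJ and ACJ, and Wickerhamomyces anomalus in IWA and AWA. The yeasts of ICJ and IWA were inactivated by spray-drying, and those of ACJ and AWA were autolyzed and, by the study's methods, then spray-dried as well. All fish were smolts transferred to seawater during the trial, and each diet was given to 3 tanks with 2 sequenced fish per tank. The tank of a fish is not labelled, so fish were treated as replicates and the p-values do not allow for a likeness within tanks.

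The protein named CLIC5 belongs to the chloride intracellular channel family, whose members occur both as soluble proteins and at membranes. In mouse it is found at the base of the stereocilia of inner ear hair cells and in microvilli, where it associates with ezrin and links the membrane to actin. SLC13A5 is a sodium-coupled transporter that carries citrate into cells across the plasma membrane, best known from mammalian liver and brain, and citrate feeds both the citric acid cycle and, in the cytosol, the synthesis of fatty acids and sterols. The DI is the last part of the salmon gut, where enterocytes take up proteins into large vacuoles, whereas most absorption of lipids and peptides takes place further forward. The roles of these 2 salmon genes themselves are known only by their names.

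Both genes lie on chromosome 9 of the assembly Ssal_v3.1, on the minus strand and far apart from each other. The gene clic5a spans 25438535 to 25446724, with an exon length of 4038 bases, and no other gene overlapped it. The gene slc13a5b spans 131179471 to 131191861, with an exon length of 2406 bases. Its span overlaps ENSSSAG00000101337 on the plus strand, which shares no exonic base with it, and LOC106612935 (ENSSSAG00000093482) on the same strand, which shares 168 exonic bases. Neither neighbour had more than 4 counts in any DI library.

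Between 6976621 and 30857656 fragments were counted on genes per library in the DI and between 15062129 and 35187924 in the spleen. The enterocyte markers cdh17, a cadherin of the intestinal epithelium, and cdx1b, an intestinal transcription factor, had medians of 1984 and 130 CPM in the DI and of 0.993 and 0 CPM in the spleen. The DI library of ICJ replicate 4 stood apart from the other 35 in genes beyond these 2, and was named with the values of both genes known. It had 311 CPM of cdh17, where the others had at least 788, and 20.8 CPM of the ileal bile acid transporter slc10a2, where the others had at least 585. The genes slc12a3 and clcnk, whose mammalian counterparts are transporters and channels of the kidney, had 173 and 130 CPM in it and at most 0.527 and 1.44 CPM in the others. It was the only DI library with 0 counts of clic5a.

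In the DI, clic5a had its highest median in fish fed FM and its lowest in fish fed AWA. The 6 FM fish had 77.9, 23.4, 21.0, 238, 279 and 25.8 CPM. The 6 AWA fish had 3.32, 17.8, 2.22, 1.60, 4.65 and 0.732 CPM, so that the highest AWA fish stood below the lowest FM fish. In bulk tissue, fewer cells that express a gene and less of its RNA per cell cannot be told apart. Fish fed SBM had 13.2, 2.84, 4.83, 17.1, 4.65 and 3.69 CPM and also lay below all FM fish. In fish fed ICJ the values were 3.07, 117, 3.21, 0, 3.00 and 109 CPM, which put 2 fish within the FM range and 4 below it. Fish fed ACJ had 2.86, 45.1, 3.62, 40.9, 28.6 and 133 CPM, and 4 of them lay within the FM range. Fish fed IWA had 6.33, 26.4, 22.3, 1.63, 68.4 and 3.39 CPM, with 3 fish below all FM fish. The median was 51.9 CPM for FM, 34.8 for ACJ, 14.3 for IWA, 4.74 for SBM, 3.14 for ICJ and 2.77 for AWA. The ranges of every pair of neighbours in this order overlapped.

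The gene slc13a5b again had its highest median in the FM intestines, where the fish also lay closest together on the log2 scale. Its values there were 39.2, 20.9, 17.9, 50.0, 27.7 and 19.9 CPM. Fish fed AWA had 1.03, 5.44, 1.27, 0.171, 2.81 and 1.62 CPM, all below the FM range. Fish fed IWA, with 0.972, 11.4, 12.9, 0.139, 14.8 and 0.396 CPM, lay below it as well and fell into 3 fish above 11 CPM and 3 under 1 CPM. In fish fed SBM the values were 38.7, 0.355, 12.5, 13.0, 20.9 and 3.89 CPM. Fish fed ICJ had 0.460, 25.4, 1.86, 0.119, 0.787 and 2.73 CPM, and replicate 2 was the only one of them within the FM range. Fish fed ACJ had 6.96, 11.5, 3.62, 50.7, 32.4 and 13.3 CPM, of which the highest exceeded every FM fish. By median the order was FM (24.3 CPM), SBM (12.8), ACJ (12.4), IWA (6.17), AWA (1.44) and ICJ (1.32), and again all neighbours overlapped. The order thus differed between the 2 genes, since SBM stood below ACJ and IWA for clic5a and above them for slc13a5b. Per kilobase of exon the FM medians were 12.8 CPM for clic5a and 10.1 CPM for slc13a5b, and clic5a had the higher level per kilobase in 21 of the 36 DI libraries.

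**Figure D1:**
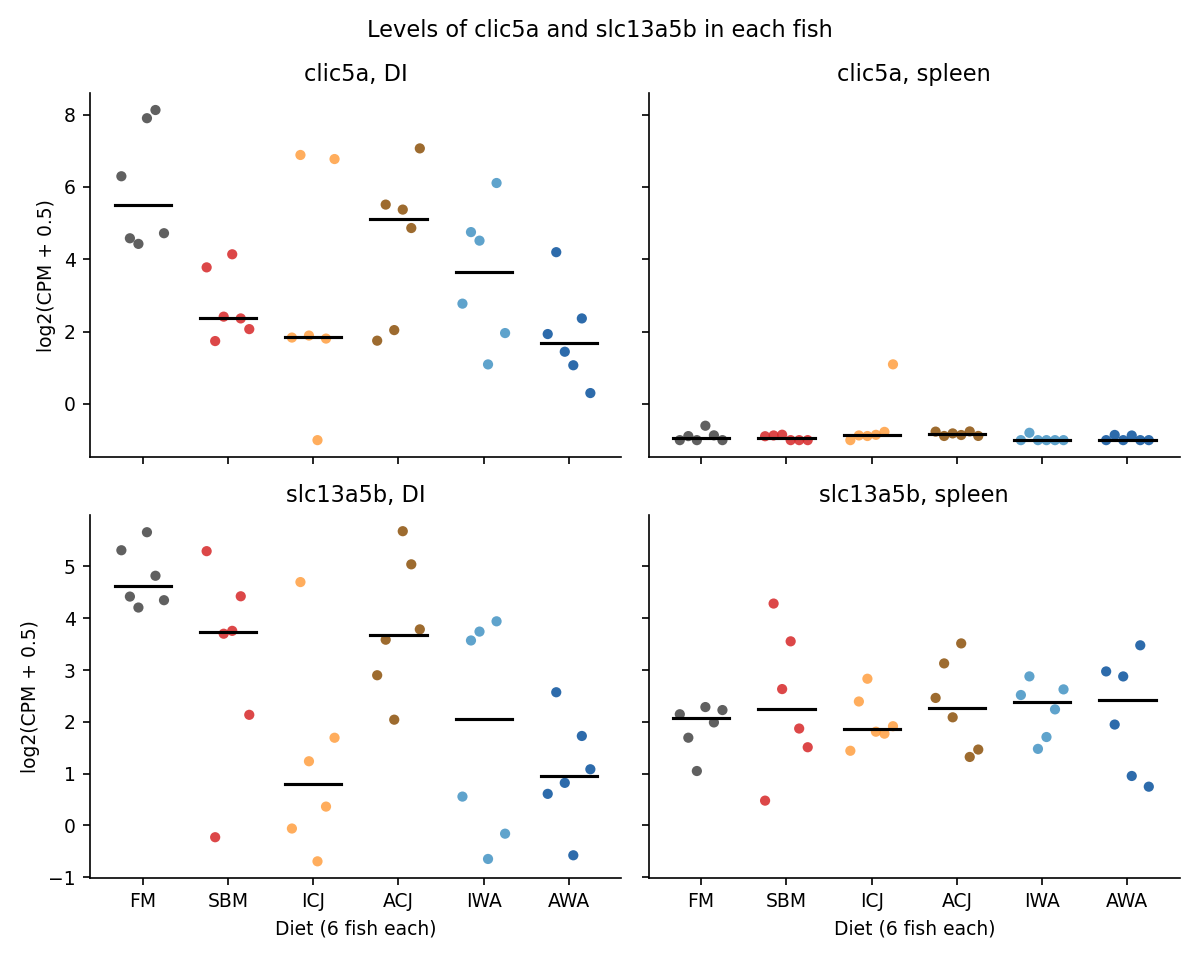
Levels of clic5a (top) and slc13a5b (bottom) in the DI (left) and the spleen (right), as log2(CPM + 0.5), 1 point per fish and 6 fish per diet, with the median as a bar. In the DI all AWA fish lie below all FM fish for both genes, while clic5a is near the floor in 35 of the 36 spleens.

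As a description of the comparisons that share the FM or AWA intestines, clic5a had a log2 fold change of -4.46 (standard error 1.24) in AWA|FM and slc13a5b one of -3.84 (1.08), which correspond to 22.0-fold and 14.3-fold lower levels. The next genes in the order that chose them were si:dkey-246g23.4 at -3.29 and cyp4v2b at -3.09, of 59 genes. Among all genes tested in the DI, edgeR called 413 lower in AWA|FM, 1.28% of them. For clic5a the log2 fold change was -3.85 (1.20) in SBM|FM, -1.50 (1.09) in ICJ|FM, -1.38 (1.09) in ACJ|FM and -2.38 (1.13) in IWA|FM. For slc13a5b it was -0.98 (0.96) in SBM|FM, -2.49 (1.01) in ICJ|FM, -0.57 (0.95) in ACJ|FM and -2.14 (1.00) in IWA|FM. Each of the 10 values was negative. They share the 6 FM fish, so they are not 10 separate observations. The 6 SBM fish lay below all FM fish for clic5a and the 6 IWA fish for slc13a5b, which held for 0.305% and 0.899% of all genes. For AWA and FM that share was 1.5%. For ICJ and ACJ, whose fish overlapped with fish fed FM in both genes, it was 0.196% and 0.0933%. Both genes were chosen for FM levels above those of AWA, which favours negative signs and such gaps against FM. The shares of all genes therefore do not tell how rare the gaps are for genes chosen in this way. Compared with the other soybean meal diets, fish fed AWA had log2 fold changes of -0.61 (AWA|SBM), -2.96 (AWA|ICJ), -3.08 (AWA|ACJ) and -2.08 (AWA|IWA) for clic5a and of -2.86, -1.35, -3.27 and -1.70 for slc13a5b. By the mean of log2(CPM + 0.5), AWA|ICJ was -1.15 for clic5a and -0.17 for slc13a5b, and no AWA fish lay outside the range of the ICJ fish in either gene. The lower end of that range was ICJ replicate 4 in both genes. The next lowest ICJ fish had 3.00 CPM of clic5a and 0.460 CPM of slc13a5b. Below these lay AWA fish with 2.22, 1.60 and 0.732 CPM of clic5a and 1 with 0.171 CPM of slc13a5b. Without ICJ replicate 4, ICJ|FM was -1.23 for clic5a and -2.23 for slc13a5b, and without ICJ replicate 2 it was -4.61 for slc13a5b.

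The FM level of clic5a came from fish that differed widely. FM replicates 3, 4 and 5, whose libraries had been counted in another folder than all others, had 21.0, 238 and 279 CPM, and the other 3 FM fish had 23.4 to 77.9 CPM. Without those 3 libraries the log2 fold change of clic5a was -2.43 (standard error 1.25) in SBM|FM, -0.051 (1.29) in ICJ|FM, 0.00031 (1.29) in ACJ|FM, -1.07 (1.26) in IWA|FM and -3.09 (1.27) in AWA|FM, so that all 5 were nearer to 0 than with them and those of ICJ and ACJ were close to 0. For slc13a5b the 3 libraries had 17.9 to 50.0 CPM and the other 3 FM fish 19.9 to 39.2 CPM, and without them its 5 values ran from -3.71 in AWA|FM to -0.43 in ACJ|FM. The part of the folder in these values was not tested.

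The SBM, ICJ, ACJ and IWA intestines were not used in choosing the genes, and the 6 comparisons among them were tested. For neither gene did a difference between these diets pass the test. edgeR called 0 genes (0.0%) in each of the 6 comparisons, with 324 to 5265 genes at an unadjusted p under 0.05, and DESeq2 called 2 to 668. For clic5a the log2 fold change was 2.35 (standard error 1.13, adjusted p = 0.987) in ICJ|SBM, 2.46 (1.13, adjusted p = 1.00) in ACJ|SBM and 1.46 (1.10, adjusted p = 0.780) in IWA|SBM. Its approximate 95% intervals were 0.13 to 4.57, 0.24 to 4.69 and -0.70 to 3.63, so that these data leave a wide range of sizes. Between the yeast diets the log2 fold change of clic5a was 0.11 in ACJ|ICJ (adjusted p = 0.997), -0.89 in IWA|ICJ (adjusted p = 0.713) and -1.0 in IWA|ACJ (adjusted p = 0.721). The fitted values for ICJ follow the 2 fish above 100 CPM. By the mean of log2(CPM + 0.5), which gives each fish the same weight, ICJ|SBM was 0.28 and IWA|ICJ was 0.50. For ICJ|SBM this was far below the fitted 2.35, and the ICJ median (3.14 CPM) lay below the SBM median (4.74 CPM). For IWA|ICJ it was of the opposite sign to the fitted value.

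For slc13a5b the log2 fold change was -1.51 (standard error 0.98, adjusted p = 0.987) in ICJ|SBM, 0.41 (0.95, adjusted p = 1.00) in ACJ|SBM and -1.16 (0.97, adjusted p = 0.804) in IWA|SBM. The largest difference was that between the autolyzed and the inactivated C. jadinii, with 1.93 (0.99, adjusted p = 0.957) in ACJ|ICJ and an approximate 95% interval of -0.02 to 3.87. The exact permutation test of the 6 ACJ against the 6 ICJ fish gave p = 0.026, two-sided, and 0.312 after adjustment over the 12 tests of this kind, of which 924 regroupings allow none below 0.00216. In IWA|ICJ and IWA|ACJ the log2 fold changes were 0.35 (adjusted p = 0.885) and -1.57 (adjusted p = 0.508). Without ICJ replicate 4, clic5a had 2.61 in ICJ|SBM, -0.15 in ACJ|ICJ and -1.15 in IWA|ICJ, and slc13a5b had -1.26, 1.67 and 0.09. Without ICJ replicate 2, slc13a5b had -3.64 in ICJ|SBM, 4.05 in ACJ|ICJ and 2.47 in IWA|ICJ. Without IWA replicate 5, clic5a had 0.60 in IWA|SBM. None of these passed the test.

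The fish of a diet varied far more in these 2 genes than in most others. The biological coefficient of variation that edgeR fitted in the DI was 1.20 for clic5a and 1.10 for slc13a5b, against a median of 0.342 over the 32157 genes tested, which placed them at the percentiles 98.1 and 97.3. Within ICJ the SD of log2(CPM + 0.5) was 3.14 for clic5a and 1.91 for slc13a5b, and without ICJ replicate 4 it was 2.73 and 1.87. Within FM it was 1.69 for clic5a but 0.584 for slc13a5b, the percentiles 98.7 and 66.9 of all genes in that diet. In the other 5 diets slc13a5b had SDs of 1.06 to 2.14, all at or above the percentile 97.3. The choice took the largest log2 fold changes, which favours genes with a wide spread, and the fitted coefficients include the FM and AWA intestines. It also asked for no overlap between FM and AWA, which favours a narrow spread within FM. The place of these spreads among all genes is therefore a description.

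Fish with more clic5a also had more slc13a5b in the DI. Over the 24 fish fed SBM, ICJ, ACJ and IWA, Pearson's r of log2(CPM + 0.5) was 0.682 (permutation p = 0.00031) and Spearman's rho 0.738 (permutation p = 7.0e-05). Without the 2 fish farthest from the median of clic5a r was 0.664, without ICJ replicate 4 it was 0.632, and with the diet means removed 0.743. Within diets r was 0.677 for SBM (exact p = 0.118), 0.846 for ICJ (exact p = 0.0194), 0.613 for ACJ (exact p = 0.194) and 0.963 for IWA (exact p = 0.00278), positive in each. On the CPM scale r was 0.276 (permutation p = 0.178), so the relation holds for log levels and was not shown for CPM. ICJ replicate 6 stood off the trend, with 109 CPM of clic5a and 2.73 CPM of slc13a5b. In the fish used for the choice r was 0.785 within FM and 0.729 within AWA, as a description.

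**Figure D2:**
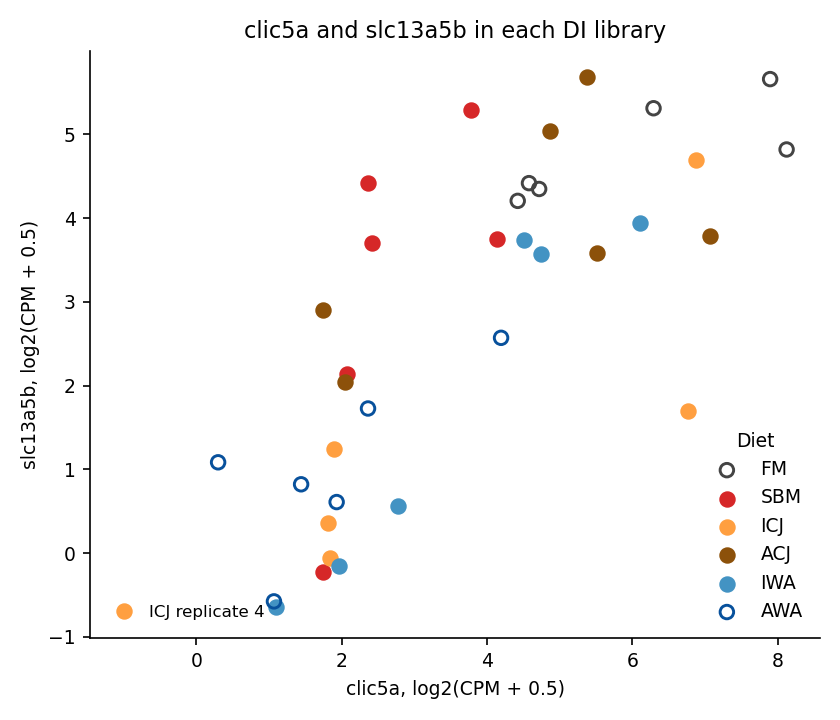
Level of slc13a5b against that of clic5a, both as log2(CPM + 0.5), in the 36 DI libraries. Filled points are the 24 fish behind the r of 0.682, and open points are the FM and AWA fish, which chose the genes. ICJ replicate 4 is marked at the lower left.

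Both genes were related to the proximal absorptive enterocyte and posterior Hox lists. Over all 24 fish, relations with the anterior Hox and lysosome rich enterocyte lists did not pass. The levels were compared in the same 24 fish with 6 marker lists and with the library total, 14 relations in all, each list as the mean log2(CPM + 0.5) of its genes. The list of proximal absorptive enterocytes held apoa1 (an apolipoprotein of lipid-carrying particles), slc15a1 (the apical peptide transporter) and apobb.1 (an apolipoprotein B gene). Only apoa1 had a higher median in the DI (724 CPM) than in the spleen (0.0171 CPM). For slc15a1 the medians were 0.485 and 1.00 CPM, and for apobb.1 0.827 and 5.90 CPM. The list had an r of 0.940 with clic5a (rho 0.913, adjusted permutation p = 0.00014, where the raw p was the smallest the draws can give). With slc13a5b it had 0.723 (adjusted permutation p = 0.000245). The single genes gave r of 0.856 and 0.769 for apoa1, 0.936 and 0.648 for slc15a1 and 0.780 and 0.501 for apobb.1, with clic5a first and slc13a5b second. The posterior Hox genes, which mark hind positions of the body axis, gave r of -0.758 with clic5a and -0.735 with slc13a5b (adjusted permutation p = 0.000245 for each). Of the 24 posterior Hox genes that passed the filter, 23 had a negative r with clic5a and 20 with slc13a5b. The one highest by median, hoxc10aa (12.8 CPM), had 0.162 with clic5a and 0.680 with slc13a5b. Next by median, hoxa9b, hoxa11aa, hoxa11ab and hoxa13 had -0.192, 0.148, 0.232 and -0.565 with slc13a5b. With clic5a these had -0.625, -0.307, -0.0201 and -0.106, so most of them were weaker than the list as a whole. Some with a strongly negative r were near the floor, such as hoxd12a (median 0 CPM, -0.754 with slc13a5b). With diet means removed the r of the proximal list was 0.949 and 0.739, and that of the Hox list -0.778 and -0.742. The other 10 relations did not pass. They were those with anterior Hox genes (r = -0.10 for clic5a and 0.14 for slc13a5b), lysosome rich enterocytes of the distal gut (-0.10 and 0.31), exocrine pancreas (0.13 and 0.44), T cells (0.17 and 0.42) and the library total (-0.22 and -0.30). Without ICJ replicate 4 a negative r of clic5a with the lysosome rich enterocyte list (-0.56, adjusted permutation p = 0.0077) and a positive r of slc13a5b with the T cell list (0.61, adjusted permutation p = 0.0065) passed as well.

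By diet, the summed level of the proximal list ran from 155 to 12264 CPM in FM (median 3959), 34.2 to 4071 in SBM (690), 0.536 to 8732 in ICJ (224), 274 to 4367 in ACJ (2044), 30.1 to 2802 in IWA (798) and 39.2 to 3877 in AWA (148). By median these sums were almost entirely apoa1, with 3936 CPM in FM, 688 in SBM, 224 in ICJ, 2031 in ACJ, 784 in IWA and 148 in AWA. They therefore describe that gene rather than the list, unlike the mean log2 levels used for the relations. Of the 4 genes of this list, apoba had a median of 0 CPM in the DI and slc15a1 medians of 16.3 CPM in FM and 0.0768 CPM in AWA. The summed level of the posterior Hox genes had a median of 62.4 CPM in FM and 101 CPM in AWA. The ranges of FM and AWA overlapped in both lists. Of the 3 proximal genes tested, edgeR called 1 lower in AWA|FM and 0 in the other 10 comparisons of these intestines. It called 0 of the 24 posterior Hox genes in each of the 11. Of all genes, 3.41% were called in AWA|FM (1.28% lower) and 0.00311% to 0.308% in the other comparisons with FM. Among SBM, ICJ, ACJ and IWA the share was 0.0%, so a count of 0 there says nothing about the lists. The part of gut position in the diet differences of the 2 genes was not tested.

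**Figure D3:**
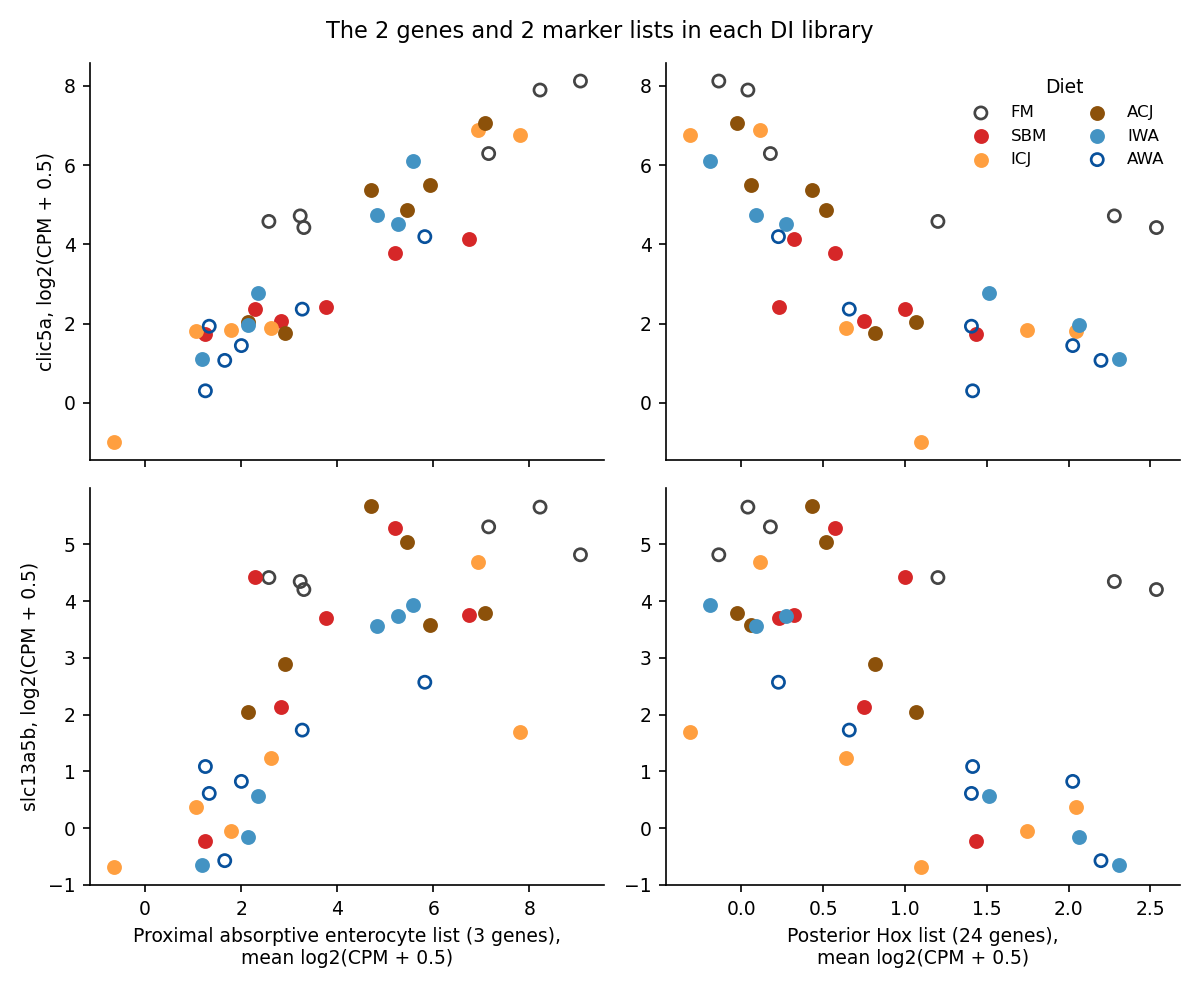
Levels of clic5a (top) and slc13a5b (bottom), as log2(CPM + 0.5), against the mean log2(CPM + 0.5) of 3 proximal absorptive enterocyte genes (left) and of 24 posterior Hox genes (right) in the 36 DI libraries. Filled points are the 24 fish of the tested relations, which rise to the right in the left panels and fall in the right panels, and open points are FM and AWA fish.

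In the spleen, clic5a was close to absent. The 36 libraries held 56 counts of it in all, with 0 counts in 16 libraries and 1 count in 13, and it did not pass the filter on low counts. Of the 56 counts, 29 came from ICJ replicate 6 (1.64 CPM), while the other 35 spleens had 0 to 4 counts each. That spleen also held 67.3 CPM of apoa1, where no other spleen exceeded 0.661, and the DI of the same fish had 109 CPM of clic5a and 3954 CPM of apoa1. The intestinal markers cdh17 and slc10a2 were at 8.97 CPM (at most 7.92 in the others) and 0.113 CPM (rank 25 of 36) in it. The part of other tissue in this spleen was not tested.

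The gene slc13a5b was measured in every spleen, at 0.894 to 19.0 CPM. Fish fed FM had 3.93, 2.73, 1.57, 4.37, 3.47 and 4.18 CPM. Fish fed SBM had 0.894, 19.0, 5.70, 11.2, 3.16 and 2.35 CPM, which included both the lowest and the highest value of all 36 spleens. Fish fed AWA, with 7.35, 3.36, 6.84, 1.44, 10.6 and 1.18 CPM, held 2 fish below and 3 above all fish fed FM. The other ranges were 2.22 to 6.62 CPM in ICJ, 2.00 to 10.9 CPM in ACJ and 2.29 to 6.84 CPM in IWA. The medians ran from 5.10 CPM in AWA through 4.72 (IWA), 4.43 (SBM), 4.38 (ACJ) and 3.70 (FM) to 3.14 in ICJ, and all ranges of neighbours overlapped.

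None of the 9 spleen comparisons passed the test for slc13a5b. edgeR called 0 of 32144 genes (0.0%) in each of them, with 821 to 2958 genes at an unadjusted p under 0.05, and DESeq2 called 1 to 25. The largest log2 fold change of slc13a5b was 1.06 in SBM|FM (standard error 0.55, adjusted p = 0.640). It was 0.45 without SBM replicate 2 and 0.49 by the mean of log2(CPM + 0.5). In AWA|FM it was 0.60 (0.55, adjusted p = 0.790), with an approximate 95% interval of -0.47 to 1.67. The other comparisons with FM gave 0.17 (ICJ), 0.67 (ACJ) and 0.42 (IWA), and those with SBM gave -0.89 (ICJ), -0.39 (ACJ), -0.64 (IWA) and -0.46 (AWA). A difference between the tissues in the response to a diet was not tested for these genes, since the DI side of that difference chose them. Across the 36 fish the level of slc13a5b in the DI had an r of -0.06 with that in the spleen, and that of clic5a one of 0.30, as a description.

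The tissues were compared in the 24 fish fed SBM, ICJ, ACJ and IWA. In these the gene clic5a had 12135 counts in the DI and 48 in the spleen, or 19 without the spleen of ICJ replicate 6, and median levels of 5.58 and 0.0416 CPM. It was higher in the DI in 23 of the 24 fish, all except ICJ replicate 4. Since it passed the filter on low counts only through the DI, these are a description with no test. Among all genes a difference was common: 83.1% of the 34452 genes tested differed between the tissues, 40.9% with the higher level in the DI, and 84.1% differed with the fish as a block. For slc13a5b the log2 fold change was 1.22 (standard error 0.44, adjusted p = 0.0109), but with the fish as a block it was 0.49 (adjusted p = 0.387). Without ICJ replicate 4 of the DI it was 1.29 (adjusted p = 0.00613). Without the DI library of ICJ replicate 2 it was 0.70 (adjusted p = 0.105). Within fish, slc13a5b was higher in the DI in 5 of 6 fish fed SBM, 5 of 6 fed ACJ, 3 of 6 fed IWA and 1 of 6 fed ICJ, 14 of 24 in all. In the fish used for the choice it was higher in the DI in 6 of 6 fish fed FM and 2 of 6 fed AWA.

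**Figure D4:**
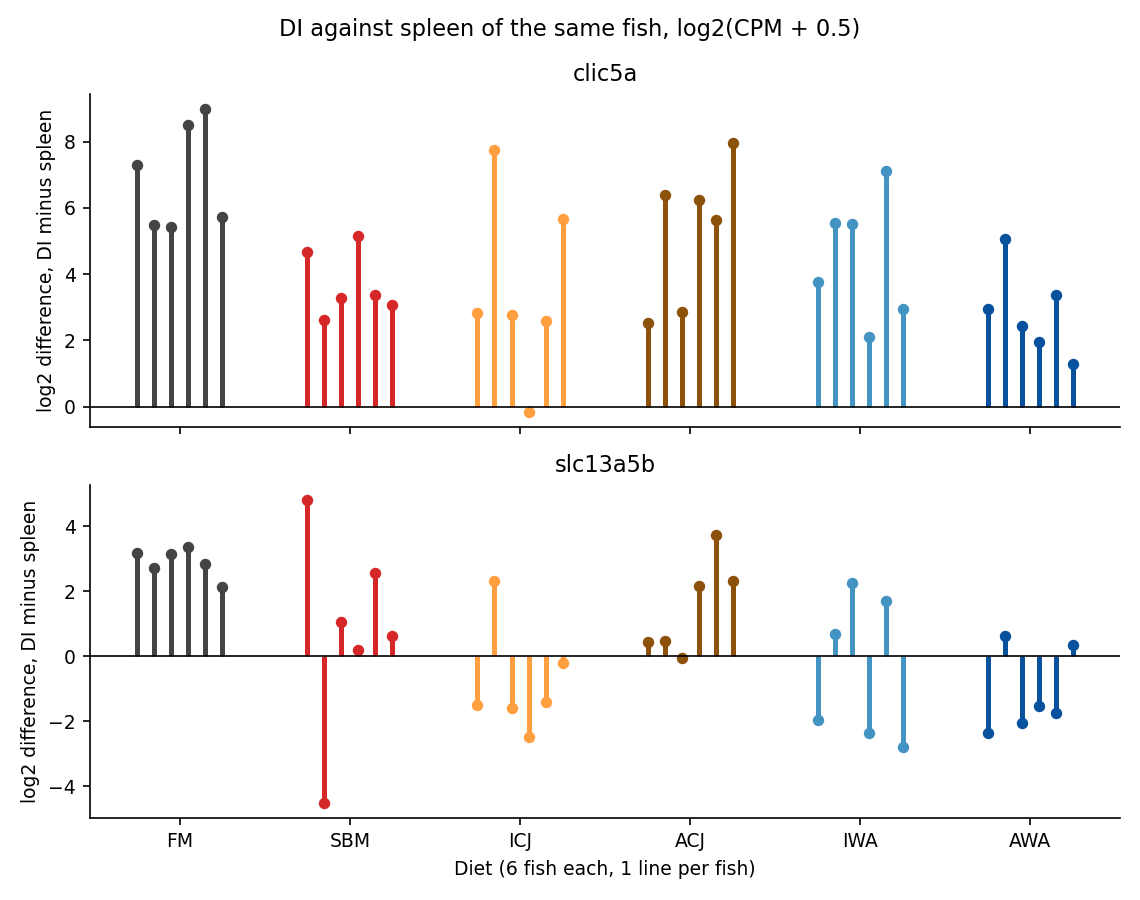
Difference in log2(CPM + 0.5) between DI and spleen of the same fish for clic5a (top) and slc13a5b (bottom), 1 line per fish. All fish except ICJ replicate 4 have more clic5a in the DI, whereas for slc13a5b 14 of the 24 fish fed SBM, ICJ, ACJ and IWA do.

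By symbol, 3 other CLIC genes and slc13a1 were matched from the same families. The gene clic2, of the same family as clic5a, had a median of 13.7 CPM in the DI and 66.0 CPM in the spleen, the reverse of clic5a. Its level in the DI was 4.23 to 27.9 CPM in FM and 3.42 to 15.3 CPM in AWA, and its log2 fold change in AWA|FM was -1.27 (standard error 0.58, adjusted p = 0.179). A pair of clic3 genes (ENSSSAG00000079906 and ENSSSAG00000099634) did not pass the filter, with DI medians of 0.105 and 0 CPM. The gene slc13a1, which in mammals encodes a sodium-coupled sulfate transporter of kidney and intestine, had 0.0688 to 19.4 CPM (median 1.20) in FM, 0 to 0.299 CPM in AWA and at most 3.03 CPM in any other diet. It was called lower in AWA|FM, where its log2 fold change was -5.87 (standard error 1.51, adjusted p = 0.0310), although the ranges of the 2 diets overlapped. Its medians in the soybean meal diets were near the floor, at 0 to 0.0958 CPM, so the call rests mostly on the FM fish. The other comparisons with FM gave -6.32 (SBM), -3.08 (ICJ), -2.94 (ACJ) and -5.62 (IWA) and were not called by edgeR, so the lower level was not particular to AWA. In the spleen slc13a1 had 0 counts in all but 1 library.

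Around the 2 genes, 73 genes were listed, and 58 of them were tested. They came from the CLIC and SLC13 families, ezrin partners and the brush border, citrate metabolism, chloride and anion transport, and apical solute transport (mostly sodium-coupled). In AWA|FM, where 3.41% of all genes were called, 3 of the 58 were called. Of these, 1 was lower (slc13a1, where 1.28% of all genes were lower) and 2 were higher (2.13% of all genes). By median slc13a1 was near the floor in every soybean meal diet. The 2 higher were me2, a mitochondrial malic enzyme gene (log2 fold change 0.92, standard error 0.24, adjusted p = 0.0323), and ano10a of the anoctamin family (0.69, 0.16, adjusted p = 0.0216). The malic enzyme genes named me3 had -0.11 and -0.41 and were not called. The median log2 fold change of the 58 genes was 0.0358, against -0.0802 for all genes. By list it was 0.16 for the 9 genes of citrate metabolism, -0.08 for the 25 of chloride and anion transport and -0.65 for the 9 of apical solute transport. Of the ezrin genes, ezra had 0.01 (standard error 0.32, adjusted p = 0.985) and ezrb 0.89 (0.30, adjusted p = 0.0783). Citrate synthase (cs) had 0.72 (0.31, adjusted p = 0.153). In IWA|FM 1 of the 58 was called, ttyh1 of the tweety family (1.55, adjusted p = 0.0497), where 0.308% of all genes were called. In SBM|FM, ICJ|FM, ACJ|FM and the 6 comparisons among SBM, ICJ, ACJ and IWA edgeR called 0 of the 58. Of all genes, 0.0187%, 0.0466% and 0.00311% were called in the 3 comparisons with FM. At an unadjusted p under 0.05 there were 8, 11 and 6 of the 58 in these (13.8%, 19.0% and 10.3%, against 8.84%, 13.0% and 4.52% of all genes) and 2 to 5 in the other 6 comparisons (3.45% to 8.62%, against 1.01% to 16.4%). In these comparisons, which leave out IWA|FM and AWA|FM, DESeq2 called 2 in SBM|FM, where it called 0.492% of all genes. It called 2 in IWA|ICJ, where it called 2.05%, and 0 in each of the rest. In IWA|FM and AWA|FM it called 3 and 7 of the listed genes, more than edgeR, where it called 2.98% and 7.95% of all genes. Such a count depends on how many of all genes a tool calls.

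The genes most like clic5a over the 36 DI libraries were searched among 27415 genes with a mean of at least 1 CPM. The 8 highest had r of 0.922 to 0.935. Those with a symbol were ces2b of the carboxylesterases (0.935), cyp4v2b (0.935) and cyp2ae1 (0.922) of the cytochromes P450, and the anion exchanger gene slc26a6.2 (0.923). Their medians in FM and AWA were 108 and 12.6 CPM for ces2b, 28.6 and 3.27 CPM for cyp4v2b, 33.9 and 0.923 CPM for slc26a6.2 and 25.0 and 2.46 CPM for cyp2ae1. Within the 24 fish fed SBM, ICJ, ACJ and IWA the r with clic5a was 0.926 for ces2b and 0.941 for cyp4v2b. It was 0.928 for slc26a6.2 and 0.902 for cyp2ae1. These fish are among the 36 that ranked the genes, so the values are no separate check. The other 4 were LOC106565508, LOC106585404, LOC106574545 and ENSSSAG00000052702. The 4 lowest included nox1, an NADPH oxidase gene known from mammalian colon (r = -0.869), with medians of 3.51 CPM in FM and 15.1 CPM in AWA, and LOC106569190, LOC106580760 and LOC106572460.

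None of the 8 genes most like slc13a5b had a symbol beyond a LOC number, and their r was 0.903 to 0.927. The first was LOC106568235 (r = 0.927), with medians of 41.6 CPM in FM, 14.1 in ACJ, 6.82 in SBM, 3.27 in IWA, 0.244 in ICJ and 0.116 in AWA. LOC106580020 and LOC106590356 were the others with a LOC number, and the remaining 5 were ENSSSAG00000084038, ENSSSAG00000056112, ENSSSAG00000008210, ENSSSAG00000087676 and ENSSSAG00000120375. The 4 lowest were LOC106564727 (-0.910), LOC106567062, LOC106612891 and leg3 (-0.890). The 2 sets of 8 shared 0 genes, and the 100 highest of each shared 25, or 25% of each. By likeness to clic5a, slc13a5b ranked 321, and by likeness to slc13a5b, clic5a ranked 229. All 16 genes had a negative log2 fold change in AWA|FM and more CPM in the DI than in the spleen by median. They were picked by likeness over libraries that include the FM and AWA fish. Their negative sign therefore follows from how they were picked and is no separate result. The points share their libraries and diets, so these r carry no test.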

How the data were processed

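RNA-seq libraries of DI and spleen (TruSeq Stranded mRNA, paired reads, NovaSeq) were processed by the authors, who trimmed reads with Trim Galore, used STAR_RSEM on the Ssal_v3.1 assembly and counted fragments as reverse-stranded pairs with featureCounts (1.5.1 in the file headers, 1.4.6 in the labels). The deposited values are raw counts per gene, without normalization. Per the file headers marked duplicates were counted, and fragments that map to several places were not counted, which lowers genes with near-identical copies.

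Each tissue was fitted in 1 model of its 36 libraries with diet as the only factor in edgeR 4.0.16 (R 4.3.3), using its quasi-likelihood test with robust dispersions, after TMM scaling and its default removal of genes with low counts. P-values were adjusted by Benjamini-Hochberg over all genes tested, and 0.05 was the threshold. The tissues were compared over 48 libraries. CPM use the TMM-scaled totals, and log2 levels a pseudocount of 0.5 CPM. Approximate 95% intervals are the estimate and its standard error under a normal curve. Relations across fish used 100000 permutations, two-sided, or all orders within a diet. The DI and spleen libraries of a fish were paired by the fish number in the labels, and their deviations from the group means had a mean r of 0.225 (lowest -0.0283, highest 0.526). Checked on simulated data, the edgeR test recovered 36.96% of genes changed by 1 and 75% of genes changed by 2 on the log2 scale in IWA|SBM of the DI, with 2.542% of calls false. For AWA|FM of the spleen these were 82.52%, 93.81% and 3.297%. The changed genes were drawn at random from genes above a minimum mean count. In the DI clic5a and slc13a5b had biological coefficients of variation of 1.20 and 1.10, against a median of 0.342. In the spleen slc13a5b had 0.625, against a median of 0.188. These shares therefore do not hold for the 2 genes themselves. The precision is set by the depth and the spread between fish.

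Symbols came from RefSeq genes of Ssal_v3.1 that overlapped by at least 50% of both spans, which named 34983 genes, 8968 of these not by a LOC number alone. Lists were matched by symbol only, so family members with a LOC number are missing from them. The members and lists were chosen with earlier results of these data known. Named were both genes, the 8 most and 4 least like each, all CLIC and SLC13 genes, and the other list genes called in AWA|FM. The genes ttyh1, ezra, ezrb, me3 and cs, the marker genes and the libraries that stand apart were named after their values were seen. Alternatives were DESeq2 1.42.0, RLE size factors, removal of no genes other than those at 0 throughout, the 24 tested DI libraries alone, the replicate number or fish as a block, other scales, and each library left out. No sequences were used here.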

Additional observations from a re-analysis of the deposited data

Results flagged for a closer look

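A sample was marked where its gap to the nearest of the other 5 fish of its diet was too large a share of the whole range. The limit was the 95% limit of Dixon's test for 6 values, which chance passes in about 1 of 20 groups of normally distributed values. That rate does not hold for skewed CPM or for groups with mostly 0 counts, so the number of marked groups is no excess over it. On the CPM scale 7 of the 24 groups of diet, tissue and gene held such a sample, and on the log2 scale 3, all of them clic5a in the spleen. In the DI, clic5a was far above the other fish in ACJ replicate 6 (133 CPM), IWA replicate 5 (68.4 CPM) and AWA replicate 2 (17.8 CPM), and slc13a5b in ICJ replicate 2 (25.4 CPM). In the spleen, clic5a was far above the others in FM replicate 4 (0.159 CPM), ICJ replicate 6 (1.64 CPM) and IWA replicate 2 (0.0756 CPM). The values of FM replicate 4 and IWA replicate 2 stand for 4 and 2 counts, at which counting error alone is large. In the DI the 3 marked clic5a fish were also the highest of their diet in the mean log2 level of the proximal absorptive enterocyte list, and the part of that list in these values was not tested.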

How the results depend on the processing

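Of 1723 alternatives for 65 results, 1695 were counted as unchanged, 14 turned a direction, 3 lost a call, 2 gained one and 9 moved a value or count. Unchanged meant the same direction and side of the threshold for tested results, and a similar count for the lists. For comparisons sharing the FM or AWA intestines it meant a move smaller than the SD between fish, whatever the direction. By that rule clic5a ACJ|FM without the 3 FM libraries of another folder (0.00031) was counted as unchanged. Most alternatives left out 1 library, often of a diet outside the comparison. No tested diet comparison of clic5a or slc13a5b was called under any setting. Leaving out each library in turn, the log2 fold change in the DI ranged from -0.17 (without ACJ replicate 4) to 0.92 for slc13a5b ACJ|SBM, from -0.75 (without ACJ replicate 6) to 0.85 for clic5a ACJ|ICJ, which was also negative without ICJ replicate 1, 3, 4 or 5, and from -0.095 (without IWA replicate 5, and negative without IWA replicate 3) to 2.47 (without ICJ replicate 2) for slc13a5b IWA|ICJ. For slc13a5b ICJ|FM it ranged from -4.61 (without ICJ replicate 2) to -2.23. In the spleen slc13a5b ranged from -0.063 (without ICJ replicate 3) to 0.30 in ICJ|FM, and, highest without SBM replicate 2, from -0.72 to 0.21 in ACJ|SBM and from -0.80 to 0.15 in AWA|SBM. The DI and spleen difference of slc13a5b ranged from 0.70 to 1.37.

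The other changes were clic5a IWA|ICJ by mean log2 level (0.50), clic5a SBM|FM without the 3 FM libraries of another folder (-2.43, where ICJ|FM was -0.051 and ACJ|FM 0.00031), the tissue difference of slc13a5b with the fish as a block (0.49) or without ICJ DI replicate 2 (0.70), and r of the 2 genes on the CPM scale (0.28). The r of clic5a with anterior Hox genes was 0.32 without the 2 farthest fish and 0.23 without ICJ replicate 4, without which clic5a with the lysosome rich list had -0.56 and slc13a5b with the T cell list 0.61. Listed genes called were 2 in SBM|FM, 3 in IWA|FM, 7 in AWA|FM and 2 in IWA|ICJ with DESeq2. In the same order DESeq2 called 0.492%, 2.98%, 7.95% and 2.05% of all genes. With RLE size factors the listed genes called were 0 in IWA|FM, where 0.292% of all genes were called. Without ICJ replicate 4 they were 2 in IWA|FM and 6 in AWA|FM. The share of all genes called without that library is not given here, so these counts have no background to compare with. Such counts depend on how many of all genes a setting called, so their changes are no result about the lists. The causes were not tested.

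Across diets, libraries of a tissue with the same replicate number deviated with a mean r of -0.0149 in the DI and 0.0278 in the spleen. In these tissues 8 and 9 of 36 libraries correlated best with their own number. Diets shared no tank, so this cannot show whether fish with certain numbers within a diet shared one. With the replicate block clic5a and slc13a5b had 1.20 and -2.31 in ICJ|SBM, and genes called in AWA|FM of the DI fell from 1097 to 566. It changed no tested call of either gene. DESeq2 called 2666 genes there and the fit with no filter beyond a count above 0 called 452. Depth limits slc13a5b at its lowest, 2 counts in 1 DI library, and clic5a in the spleen.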

Other observations

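In the spleen, relations of slc13a5b with 5 marker lists and the library total were added after the data had been seen, over all 36 fish. The erythroid gene alas2, the only one of its list to pass the filter, had r = 0.477 (rho 0.451, adjusted permutation p = 0.0198 over 6 relations), and mpeg1.1, a macrophage gene and the only one of its list to pass, had r = -0.399 (rho -0.318, adjusted permutation p = 0.0492). Without the 2 fish farthest from the median these were 0.337 (adjusted permutation p = 0.168) and -0.332 (adjusted permutation p = 0.168), and neither passed. With diet means removed, the relation with alas2 was 0.559 (adjusted permutation p = 0.00246) and that with mpeg1.1 -0.384 (adjusted permutation p = 0.0640), which did not pass. The relations with exocrine pancreas (0.282), T cells (-0.140), B cells (-0.02) and the library total (-0.09) did not pass.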
